A study of Mus musculus with 48 samples.

Results

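The MHC class II genes described here are 8 in number: H2-Aa, H2-Ab1, H2-Eb1, H2-DMa, H2-DMb1, H2-DMb2, Cd74 and Ciita. They were taken by symbol from the count tables of 2 single-cell RNA-seq experiments on mouse glioma, and all 8 were found in both. They make up 8 of the 20300 genes in the table called the mix and 8 of the 14363 genes in the table of CD11b+ cells. In annotation of the mm10 build, 6 of them lie on chromosome 17: H2-DMa at 34119541 to 34139101, H2-DMb2 at 34143307 to 34151555, H2-DMb1 at 34153072 to 34160230, H2-Ab1 at 34257689 to 34269419, H2-Aa at 34282744 to 34287823 and H2-Eb1 at 34305867 to 34316674. Cd74 lies on chromosome 18 at 60803848 to 60812652, and Ciita on chromosome 16 at 10480059 to 10528418.

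MHC class II molecules present peptides from endosomes to CD4+ T cells. The alpha and beta chains are assembled on the invariant chain, encoded by Cd74, which fills the peptide groove and guides the complex to endosomes, where proteases degrade it and the DM heterodimer exchanges its last fragment for other peptides. The coactivator CIITA is recruited by factors bound to the promoters of these genes and sets their transcription. Dendritic cells, macrophages and B cells carry class II molecules, resting microglia carry little, and interferon-gamma can induce CIITA in microglia, endothelium and tumor cells. Mouse T cells are taken not to transcribe class II genes and serve as a reference. Their level is uneven: the 10% of T cells with the most held between 89% and 94.2% of the class's UMIs of these genes, and the 8 genes took 0.0288%, 0.0263%, 0.0183% and 0.0346% of UMIs in the median T cell of the 4 libraries of the mix.

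The study asked what P-selectin, the product of Selp, does in the exchange between glioma cells and the myeloid cells around them. GL261 cells, a mouse glioma line, were infected with a hairpin against Selp (shSELP) or a negative control hairpin (shNC) and grown in brains of C57BL/6 mice. Day 16 after inoculation gave the mix, in which CD11b+ cells, other CD45+ cells (both taken with magnetic beads) and the rest of the suspension were combined at equal amounts, with 2 libraries of each group, and day 21 gave CD11b+ cells, with 1 of each (shNC 1 and shSELP 2). The methods describe 6-week-old male mice and 3 pooled brains in each group. Those methods name day 17, whereas the sample labels give days 16 and 21, which are used here. Of the CD11b+ shSELP entries, 7 of 8 carry a description line that names the negative control, so the direction of that comparison rests on their titles, source names and genotypes.

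Deposited UMIs in the mix came to 22945972, 22626413, 17398121 and 25589350 in shNC 1, shNC 2, shSELP 1 and shSELP 2, and values of the 4 libraries follow that order throughout. The CD11b+ libraries held 12628177 UMIs in shNC and 11445676 in shSELP. Cells below 500 genes or above 10% mitochondrial UMIs were removed, which left 8726 of 9172 cells in the mix and 5535 of 5724 CD11b+ cells. Any 2 libraries of an experiment shared between 0 and 3 cell barcodes. A cell was assigned to the class of which it detected the most of 10 fixed markers, with at least 2 detected and more than for any other of 13 classes. None of the 8 genes served as a marker. In the mix 89.9% of kept cells were assigned: 438 dendritic cells, 2816 macrophages, 786 microglia, 97 B cells, 523 endothelial cells, 690 tumor cells and 1823 T cells, beside classes not compared here. Unsupervised clusters, built without the 8 genes, put 98.6% of the dendritic, 96% of the macrophage, 90.3% of the microglia, 95.9% of the B, 92.2% of the endothelial and 95.7% of the tumor cells in a cluster whose most frequent class was theirs. Those clusters can hold other cells: that of the B cells, led by Igkc and Ighg2b, also held 49 plasma cells, and 176 of the macrophages lay in a cluster led by S100a9 and S100a8 beside 47 neutrophils. Of the T cells, 207 lay in a cluster led by Il4, Mcpt2, Hdc, Tpsb2 and Cma1, most of them genes of mast cells, and the T cell reference was not tested without them. Levels are CPM, the UMIs of a gene scaled by the total UMIs of its class in a library, and UMIs counted at transcript 3′ ends need no scaling by gene length.

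Selp, the targeted gene, gave 1, 1, 0 and 1 UMIs in the tumor cells of the 4 libraries. Since 3 UMIs would equal 0.665, 0.922, 3.31 and 3.97 CPM there, a lower Selp level in shSELP tumor cells was not detectable at this depth. Endothelial cells, which store P-selectin, held 8, 12, 15 and 7 Selp UMIs, or 39.1, 34.2, 8.39 and 12.6 CPM. Whole libraries of the mix held 17, 25, 21 and 21, and both CD11b+ libraries held 4. The counts therefore do not test the hairpin labels.

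Together the 8 genes made up 2.55%, 2.19%, 2.05% and 3.22% of all UMIs in the mix. Their share was 4.7%, 3.93%, 4.29% and 3.61% in dendritic cells and 3.94%, 3.29%, 3.84% and 4.65% in macrophages. Microglia devoted 3.45%, 2.11%, 1.75% and 3.01% to them, and B cells 2.77%, 2.58%, 1.3% and 2.72%. Endothelial cells and tumor cells stood below these classes of the same library, though endothelial cells of shNC 2 were close to its microglia. Their shares were 0.618%, 1.98%, 0.226% and 0.64% in endothelial cells and 0.371%, 0.591%, 0.648% and 0.709% in tumor cells. T cells gave 0.226%, 0.33%, 0.167% and 0.237%, below tumor cells and endothelial cells of the same library in each case. Macrophages held 61.7%, 58%, 58.6% and 75.1% of all UMIs of these genes, shares that depend on the amounts combined and do not describe the tumor.

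H2-Aa encodes the alpha chain of I-A. Its level was 10058, 8453, 9516 and 7655 CPM in dendritic cells, 8160, 6760, 8093 and 9235 CPM in macrophages and 7047, 4231, 3600 and 6180 CPM in microglia. B cells held 5965, 5556, 2809 and 5244 CPM. Dendritic cells and macrophages overlapped at the top, and microglia overlapped with B cells below them. Endothelial cells gave 1007, 4147, 491 and 1422 CPM, tumor cells 647, 1136, 1280 and 1369 CPM, and T cells 462, 670, 364 and 479 CPM. Endothelial cells of shNC 2 were far above those of the other 3 libraries. In order of the mean over the 4 libraries, the levels were 8920 ± 1075 (SD, n = 4) in dendritic cells, 8062 ± 1014 in macrophages, 5264 ± 1618 in microglia, 4894 ± 1421 in B cells, 1767 ± 1632 in endothelial cells, 1108 ± 322 in tumor cells and 494 ± 128 in T cells. Neighbours in that order lay within the sum of their SDs of each other, except macrophages and microglia, B and endothelial cells, and tumor and T cells.

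H2-Ab1, the beta chain that pairs with H2-Aa, followed nearly the same order. It reached 10891, 8823, 9561 and 7125 CPM in dendritic cells and 8740, 7422, 9211 and 10538 CPM in macrophages. Microglia had 7383, 4056, 3405 and 5018 CPM and B cells 4411, 4614, 2347 and 3992 CPM. Macrophages and dendritic cells again overlapped, and so did microglia and B cells. Endothelial cells had 1070, 4472, 466 and 1333 CPM, tumor cells 630, 1015, 1124 and 1124 CPM, and T cells 497, 735, 309 and 521 CPM. Within each library, tumor cells and endothelial cells stood above T cells, and endothelial cells of shNC 2 also exceeded its microglia. The means were 9100 ± 1570 CPM (SD, n = 4) in dendritic cells, 8978 ± 1287 in macrophages, 4966 ± 1743 in microglia, 3841 ± 1029 in B cells, 1835 ± 1795 in endothelial cells, 973 ± 235 in tumor cells and 516 ± 174 in T cells.

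H2-Eb1 encodes the beta chain of I-E, whose alpha chain gene is defective in C57BL/6 mice. Its transcript was present at 9202, 7390, 8411 and 6387 CPM in dendritic cells, 6853, 5171, 5890 and 7005 CPM in macrophages and 5969, 3422, 2558 and 4230 CPM in microglia. B cells had 4167, 3826, 2038 and 3746 CPM. Dendritic cells stood above macrophages in 3 of the 4 libraries, the exception being shSELP 2. Tumor cells had 847, 1196, 1331 and 1245 CPM, endothelial cells 958, 3612, 428 and 1037 CPM, and T cells 375, 582, 295 and 360 CPM. In tumor cells, unlike the other 6 classes, H2-Eb1 exceeded H2-Ab1 in all 4 libraries.

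**Figure D1:**
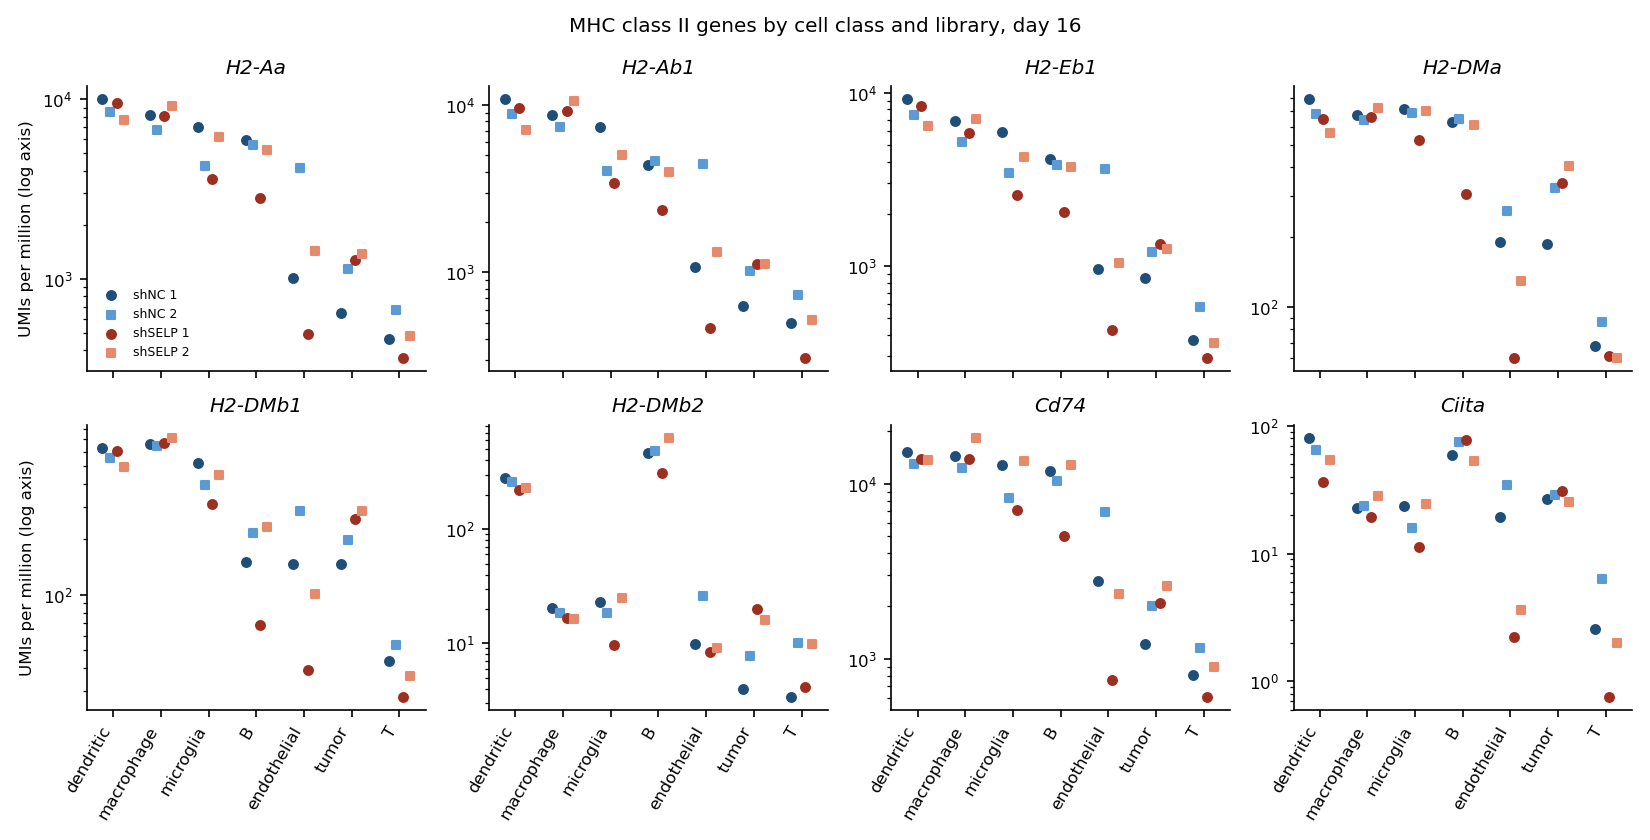
Level of each MHC class II gene in CPM (log axis) by cell class in the mix, with 1 point for each of the 2 shNC and 2 shSELP libraries. H2-DMb2 is high in B and dendritic cells alone, and Ciita spans 0.757 to 80.6 CPM between T and dendritic cells.

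H2-DMa and H2-DMb1 encode the chains of the DM peptide exchanger. H2-DMa was at 789, 682, 646 and 560 CPM in dendritic cells, 675, 640, 660 and 719 CPM in macrophages, 714, 685, 527 and 700 CPM in microglia and 630, 649, 308 and 610 CPM in B cells. These 4 classes overlapped, and only B cells of shSELP 1 fell far below the rest. Tumor cells held 186, 326, 341 and 404 CPM, endothelial cells 191, 259, 60.4 and 130 CPM, and T cells 68.2, 85.9, 61.3 and 60.5 CPM. Tumor cells were above endothelial cells in 3 of 4 libraries, whereas for H2-Aa endothelial cells had the higher mean. H2-DMb1 reached 659, 644, 669 and 712 CPM in macrophages, 626, 555, 604 and 492 CPM in dendritic cells and 521, 397, 312 and 446 CPM in microglia. Macrophages exceeded dendritic cells and dendritic cells exceeded microglia in every library. It was lower at 151, 218, 68.5 and 235 CPM in B cells, 148, 199, 257 and 286 CPM in tumor cells, 147, 285, 39.1 and 101 CPM in endothelial cells and 43.9, 53.5, 28 and 36.4 CPM in T cells.

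H2-DMb2 encodes a second DM beta chain and had a pattern of its own. B cells contained 462, 487, 308 and 631 CPM and dendritic cells 282, 260, 221 and 228 CPM. B cells exceeded dendritic cells in all 4 libraries. Macrophages had 20.2, 18.6, 16.6 and 16.3 CPM, microglia 23.1, 18.3, 9.71 and 25 CPM, and endothelial cells 9.77, 25.7, 8.39 and 9.03 CPM. Tumor cells had 3.99, 7.69, 19.9 and 15.9 CPM from 18, 25, 18 and 12 UMIs, and T cells 3.4, 10.1, 4.17 and 9.93 CPM. Microglia overlapped with macrophages, and tumor cells overlapped with T cells. H2-DMb1 and H2-DMb2 are close paralogs, as are H2-Eb1 and H2-Eb2, so their counts are uncertain where reads could be split between copies.

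Cd74, the invariant chain, was the most abundant of the 8 genes in every class. It reached 15105, 13026, 13892 and 13606 CPM in dendritic cells, 14318, 12257, 13871 and 18232 CPM in macrophages and 12816, 8261, 7100 and 13481 CPM in microglia. B cells had 11829, 10361, 5062 and 12724 CPM. The means, 14670 ± 2535 CPM (SD, n = 4) in macrophages, 13907 ± 876 in dendritic cells, 10414 ± 3204 in microglia and 9994 ± 3429 in B cells, lay within their spread of the next. Endothelial cells followed with 2780, 6924, 764 and 2360 CPM, tumor cells with 1218, 2001, 2092 and 2621 CPM, and T cells with 812, 1159, 610 and 900 CPM. Within each library, both stood above T cells in Cd74.

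Ciita, the coactivator, was the scarcest member in dendritic cells and T cells of all 4 libraries, whereas H2-DMb2 was scarcer in macrophages and tumor cells. Dendritic cells held 80.6, 65.2, 36.3 and 54.1 CPM and B cells 58.8, 74.2, 77.1 and 53.5 CPM. Macrophages had 22.6, 23.7, 19.5 and 28.4 CPM, microglia 23.7, 16, 11.2 and 24.4 CPM, and tumor cells 26.6, 28.9, 30.9 and 25.2 CPM. Tumor cells, with 120, 94, 28 and 19 Ciita UMIs, were above macrophages in 3 of 4 libraries, although their H2-Aa level was far below that of macrophages. T cells had 2.55, 6.27, 0.757 and 1.99 CPM and endothelial cells 19.5, 34.2, 2.24 and 3.61 CPM, the latter from 4, 12, 4 and 2 UMIs. A share of cells with a UMI depends on depth, so cells were thinned to 2000 UMIs, leaving out 158, 170, 241 and 198 shallower cells of the libraries. Ciita was then detected in 5.23%, 6.06%, 4.84% and 4.35% of tumor cells against 0%, 0.673%, 0.245% and 0.214% of T cells. Without thinning the shares were 25.1%, 30.2%, 20.3% and 10.2% against 1.73%, 3.01%, 0.473% and 1.48%, with median UMIs of 15480, 16230, 12258 and 4446.5 in tumor cells and 5734.5, 5692, 4990 and 7653 in T cells.

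To ask which classes carried more class II RNA, UMIs were summed per class and library and pairs of classes were tested by edgeR, with library as a block. Dendritic cells and macrophages differed in 3 of 8 members, against 47.3% of all genes. Thinned to 2000 UMIs a cell, 6 of 8 were called, adding H2-Ab1 (-0.30), H2-DMa (-0.31) and Cd74 (-0.27), all lower in dendritic cells, and H2-Aa turned (-0.06). Calls over all genes went from 4813 to 2694. H2-DMb2 was higher in dendritic cells, with a log2 fold change of 3.66 (SE 0.11, adjusted p = 6.17e-15 by edgeR's quasi-likelihood test, Benjamini-Hochberg). Ciita was also higher there, by 1.18 (SE 0.17), and H2-DMb1 was lower, at -0.36 (SE 0.10). In edgeR's quasi-likelihood test the Benjamini-Hochberg adjusted p was 1.29e-05 for Ciita and 0.00764 for H2-DMb1. The median log2 fold change of the members was -0.04, beside -0.02 over all genes. Without shSELP 2 the call of H2-DMb1 was lost (-0.21) and H2-Eb1 was called (0.42).

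Macrophages exceeded microglia in 6 of 8 members, against 38% of all genes called in either direction. The largest differences were in H2-Ab1, at a log2 fold change of 1.03 (SE 0.17), and H2-DMb1, at 0.82 (SE 0.13). H2-Eb1 stood at 0.80 (SE 0.15), H2-Aa at 0.78 (SE 0.15), Cd74 at 0.65 (SE 0.13) and Ciita at 0.49 (SE 0.16). Their Benjamini-Hochberg adjusted p in edgeR's quasi-likelihood test ran from 0.000493 for H2-DMb1 to 0.0338 for Ciita. H2-DMa, at 0.17, and H2-DMb2, at 0.08, did not pass. The call of Ciita was lost with DESeq2 (0.51) and when thinned (0.78) and without shNC 2 (0.44), shSELP 1 (0.33) or shSELP 2 (0.53). The members' median was 0.71, beside -0.01 over all genes.

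Dendritic cells and B cells differed in 6 of 8 members, against 25.1% of all genes. H2-DMb1 was higher in dendritic cells by 1.90 on the log2 scale (SE 0.33), H2-Ab1 by 1.37 (SE 0.19), H2-Eb1 by 1.32 (SE 0.20), H2-Aa by 1.01 (SE 0.20) and Cd74 by 0.65 (SE 0.20). H2-DMb2 went the other way, at -0.80 (SE 0.24). The Benjamini-Hochberg adjusted p of edgeR's quasi-likelihood test was 0.000511 for H2-Ab1, 0.0339 for Cd74 and 0.029 for H2-DMb2. H2-DMa, at 0.42, and Ciita, at -0.10, did not pass. With no filter on low counts H2-DMa was called (0.68). Cd74 lost its call without shNC 1 (0.74) or shSELP 2 (0.79), H2-DMb2 without shNC 2 (-0.78) or shSELP 2 (-0.63), and both with DESeq2 (0.73 and -0.72). Cd74 also lost it when thinned (0.08) or with the stricter rule (0.50), and H2-DMb2 with no filter on low counts (-0.54). B cells numbered 31, 39, 13 and 14.

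Against T cells, microglia were higher in 8 of 8 members, where 65.4% of all genes were called in either direction. The members' median log2 fold change was 3.52, beside -0.02 over all genes. Cd74 stood at 3.80 (SE 0.18, adjusted p = 6.24e-10, edgeR's quasi-likelihood test with Benjamini-Hochberg) and H2-DMb2, the lowest, at 1.69 (SE 0.27). Tumor cells exceeded T cells in 7 of 8 members, against 65.1% of all genes called in either direction. In tumor cells Ciita led with 2.90 (SE 0.35), followed by H2-DMb1 with 2.09 (SE 0.22), H2-DMa with 1.80 (SE 0.19), H2-Eb1 with 1.21 (SE 0.18), Cd74 with 0.84 (SE 0.18), H2-Aa with 0.81 (SE 0.19) and H2-Ab1 with 0.60 (SE 0.20). Their Benjamini-Hochberg adjusted p in edgeR's quasi-likelihood test ran from 1.6e-06 for H2-DMa to 0.0191 for H2-Ab1, and H2-DMb2, at 0.24, did not pass. H2-Ab1 lost its call without shSELP 1 (0.32) or shSELP 2 (0.56).

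Endothelial cells exceeded T cells in 7 of 8 members, against 54.2% of all genes called in either direction. The members' median was 1.16, beside -0.04 over all genes. Ciita stood at 1.81 (SE 0.53, adjusted p = 0.014) and H2-DMa at 0.71 (SE 0.27, adjusted p = 0.042) in edgeR's quasi-likelihood test with Benjamini-Hochberg adjustment. With at least 3 markers and 2 more than for any other class, 0 of 8 members were called in edgeR's test. H2-Aa was then 387, 1961, 427 and 460 CPM in 24, 34, 351 and 74 endothelial cells, beside 459, 538, 361 and 479 CPM in T cells. Under that stricter rule endothelial cells of shNC 2 remained high in H2-Aa, and those of the other 3 libraries were near T cells. H2-DMa lost its call without shNC 1 (0.59), shNC 2 (0.49) or shSELP 2 (0.71), and Cd74 without shNC 1 (1.12). H2-DMa also lost it with DESeq2 (0.77), when thinned (0.77) and without doublets (0.94). H2-DMb2, at 0.53, did not pass. In the few cells with no UMI of a macrophage marker, a choice made after seeing the data, it was called (3.8). The 10% of endothelial cells with the most contributed between 66.6% and 93.2% of the class's UMIs of these genes, where the top 10% of macrophages contributed between 22.4% and 29.9% and that of T cells between 89% and 94.2%.

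Ratios between members within a class and library compare genes apart from the overall level. H2-Eb1 over H2-Ab1 ranged over the 4 libraries from 1.11 to 1.34 in tumor cells, from 0.639 to 0.784 in macrophages, from 0.751 to 0.844 in microglia and from 0.69 to 0.955 in T cells. Tumor cells lay above these classes with no overlap. H2-DMa over H2-Aa was 0.266 to 0.295 in tumor cells, 0.0778 to 0.0947 in macrophages, 0.101 to 0.162 in microglia, 0.106 to 0.117 in B cells, 0.0625 to 0.189 in endothelial cells and 0.126 to 0.169 in T cells. Ciita over H2-Aa was 0.0184 to 0.0411 in tumor cells, 0.0099 to 0.0274 in B cells, 0.0038 to 0.008 in dendritic cells, 0.0024 to 0.0035 in macrophages, 0.0025 to 0.0194 in endothelial cells and 0.0021 to 0.0094 in T cells. Tumor cells thus had more H2-DMa and more Ciita RNA per H2-Aa than macrophages in 4 of 4 libraries, and for Ciita they overlapped with B cells and endothelial cells. Cd74 over H2-Aa, by contrast, overlapped between tumor cells, at 1.63 to 1.91, and macrophages, at 1.71 to 1.97.

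The DM beta chains divided the classes more sharply. H2-DMb2 over H2-DMb1 was 2.23 to 4.5 in B cells, 0.366 to 0.468 in dendritic cells and 0.0229 to 0.0306 in macrophages. These 3 ranges did not overlap, and tumor cells, at 0.0269 to 0.0773, overlapped with macrophages. H2-DMb1 over H2-DMa was 0.976 to 1.01 in macrophages and 0.222 to 0.386 in B cells. These ratios describe the libraries and were not tested.

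**Figure D2:**
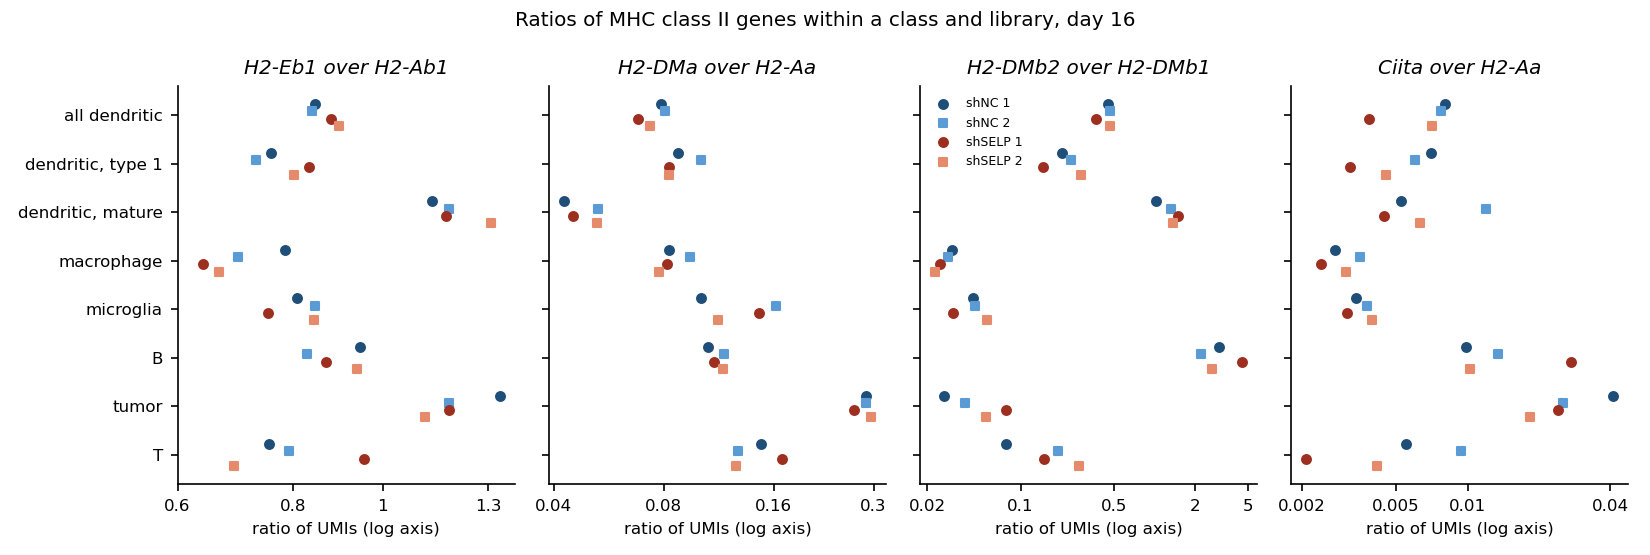
Ratio of UMIs between pairs of MHC class II genes (log axis) within each class and library of the mix, with 1 point for each of 4 libraries. Tumor cells sit at 1.11 to 1.34 for H2-Eb1 over H2-Ab1, and B cells at 2.23 to 4.5 for H2-DMb2 over H2-DMb1.

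Dendritic cells were divided by markers into mature cells with both Ccr7 and Fscn1, type 1 cells with Xcr1 or Clec9a, and others. The 8 genes took 2.59%, 2.38%, 2.05% and 1.7% of UMIs in mature cells and 5.14%, 4.79%, 5.45% and 5.04% in type 1 cells. Mature cells were lower in all 4 libraries. H2-Ab1 was at 12613, 12020, 12790 and 10994 CPM in type 1 cells and at 4864, 3978, 3337 and 2331 CPM in mature cells. H2-DMb1 was 876, 883, 1050 and 947 CPM in type 1 cells against 135, 203, 145 and 108 CPM in mature cells. H2-DMb2 overlapped between them, with 180, 209, 153 and 269 CPM in type 1 and 140, 273, 216 and 148 CPM in mature cells. Accordingly H2-DMb2 over H2-DMb1 was 0.146 to 0.284 in type 1 cells and 1.03 to 1.49 in mature cells. H2-Eb1 over H2-Ab1 was 0.729 to 0.832 in type 1 cells and 1.13 to 1.31 in mature cells, the latter in the range of tumor cells. Mature and type 1 cells numbered between 22 and 82 in a library and were not tested against each other.

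Class II promoters carry an X box and a Y box that bind the factors recruiting CIITA, so promoter sequences of the members are shown where available. RefSeq windows of GRCm38.p6 were present for 5 of the 8 members, namely H2-Aa, H2-Eb1, H2-DMa with 2 windows, H2-DMb1 and H2-DMb2. The 250 bases before each RefSeq start were searched on both strands for CNNNNAAC followed by GATTGG with 18 to 32 bases between them. These letters and gaps were chosen after reading the sequences: a first search with CTNNNAAC matched 4 members and 1 of 3 class II genes outside the members, and the wider letters matched 4 and 3. Of 32851 promoters, 54 (0.164%) held the narrower pair and 196 (0.597%) the wider pair. CNNNNAAC alone occurred in 75.6% and GATTGG alone in 14.6%. Capitals mark these letters in the matches of 4 members.
H2-Aa, chr17:34287857-34287917, minus strand: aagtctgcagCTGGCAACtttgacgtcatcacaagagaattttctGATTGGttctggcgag
H2-Eb1, chr17:34305763-34305822, plus strand: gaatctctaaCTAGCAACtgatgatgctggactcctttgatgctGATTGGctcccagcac
H2-DMb1, chr17:34153084-34153144, plus strand: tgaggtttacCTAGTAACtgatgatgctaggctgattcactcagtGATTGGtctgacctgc
H2-DMb2, chr17:34145113-34145173, plus strand: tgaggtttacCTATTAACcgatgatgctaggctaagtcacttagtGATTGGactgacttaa
The RefSeq starts of H2-DMb1 and H2-DMb2 lie inside the gene intervals given at the opening, and so do their matches. Between the last capital and the RefSeq start lie 43, 54, 56 and 85 bases for H2-Aa, H2-Eb1, H2-DMb1 and H2-DMb2, and 27, 26, 27 and 27 bases lie between the boxes. Neither H2-DMa window matched. Outside the members, the 3 genes that matched are given for comparison.
H2-Oa, chr17:34092290-34092350, plus strand: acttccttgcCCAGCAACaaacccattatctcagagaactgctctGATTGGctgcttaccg
H2-Ob, chr17:34238805-34238862, plus strand: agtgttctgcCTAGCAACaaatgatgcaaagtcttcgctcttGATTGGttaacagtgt
H2-Eb2, chr17:34325530-34325589, plus strand: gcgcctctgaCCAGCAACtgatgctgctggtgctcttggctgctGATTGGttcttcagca
A match describes letters, not binding.

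Lists of related genes were described in the same comparisons with edgeR's quasi-likelihood test. Of class II genes outside the members, H2-Oa and H2-Ob encode the DO inhibitor of DM, and H2-Eb2 a further beta chain. All 3 were higher in dendritic cells than macrophages, at log2 fold changes of 3.36 (SE 0.15), 3.77 (SE 0.21) and 4.85 (SE 0.59). H2-Oa, at -2.82, and H2-Ob, at -2.03, were lower in macrophages than microglia, where 2 were tested. In B cells H2-Ob and H2-Eb2 were higher than in dendritic cells, at -1.59 and -2.96 for dendritic against B cells. Microglia exceeded T cells in H2-Oa (3.56) and H2-Ob (3.01), endothelial cells in 0 of 2 by edgeR (0 at an unadjusted p under 0.05, and 0 by DESeq2), and tumor cells in H2-Eb2 (3.31), with H2-Oa (-2.82) and H2-Ob (-2.56) lower in tumor cells. H2-DMb2 and both DO genes were thus higher in dendritic cells than macrophages, but of the 3 only the DO genes were called between macrophages and microglia.

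The endosomal proteases cut the invariant chain and antigens. All 5 tested were lower in dendritic cells than macrophages: Ctsd -5.50 (SE 0.15), Ctsb -3.80, Ctsl -3.73, Lgmn -3.31 and Ctss -2.66 on the log2 scale. Macrophages were lower than microglia in 4 of 5, with Ctsd at -1.63, Ctsl at -0.94, Lgmn at -0.71 and Ctsb at -0.52. Dendritic and B cells differed in 0 of 5 by edgeR, where 2 had an unadjusted p under 0.05, and in 0 by DESeq2. Against T cells, microglia were higher in 5 of 5, from 3.85 for Ctsb to 5.52 for Lgmn. Endothelial cells were higher in Ctsl (2.57) and Lgmn (1.52). Tumor cells were higher in Ctsl (3.65) and lower in Ctss (-2.66), Ctsd (-1.27) and Ctsb (-0.66).

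Of the promoter-binding factors, 5 of 7 were higher in dendritic cells than macrophages: Rfx5 1.03, Nfya 1.0, Nfyb 0.69, Creb1 0.49 and Rfxap 0.38 on the log2 scale. Macrophages were higher than microglia in Rfxap (0.69) and lower in Nfya (-0.74), and dendritic cells differed from B cells in 0 of 5 by edgeR (1 at an unadjusted p under 0.05, and 0 by DESeq2). Against T cells, microglia were higher in Nfya (1.49) and Rfx5 (0.71) and lower in Nfyb (-1.63), Rfxap (-0.75) and Nfyc (-0.54). Endothelial cells were higher in Nfya (1.01) and lower in Rfxap (-0.77), Nfyb (-0.75) and Nfyc (-0.70). Tumor cells were lower in Creb1 (-0.99) and Nfyb (-0.88). These factors serve many promoters.

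Interferon-gamma acts on Ciita through its receptor, JAK kinases and IRF1, among others. Dendritic cells exceeded macrophages in Irf8 (1.80), Jak2 (1.58), Irf1 (0.93) and Socs1 (0.39) and were lower in Ifngr2 (-0.47) and Jak1 (-0.42), of 8 genes. Macrophages exceeded microglia in Jak2 (0.98), Socs1 (0.72) and Irf1 (0.38), with Irf8 and Ifngr2 at -0.33 each. Dendritic cells exceeded B cells in Jak2 (2.98), Irf8 (1.49) and Ifngr1 (1.02), with Jak1 at -0.90. Against T cells, microglia were higher in Ifngr2 (4.07) and Irf8 (0.51) and lower in Ifngr1 (-1.90), Socs1 (-1.29) and Jak1 (-0.57). Endothelial cells were higher in Ifngr2 (1.55) and Irf1 (1.13) and lower in Ifngr1 (-3.20), Irf8 (-1.59), Jak1 (-1.47) and Socs1 (-0.78). Tumor cells were higher in Irf1 (2.21), Ifngr2 (0.91) and Socs1 (0.77) and lower in Ifngr1 (-4.33), Jak1 (-2.46), Jak2 (-2.05) and Irf8 (-1.80).

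Of 6 genes of surface turnover and T cell contact tested, March1 encodes a ligase that removes class II molecules from the surface, which CD83 opposes. CD80, CD86 and ICOSL costimulate T cells, and CD40 receives help from them. Dendritic cells exceeded macrophages in Icosl (2.27), Cd80 (1.76), Cd83 (0.98), Cd40 (0.71) and Cd86 (0.59), and March1 was lower (-2.50). Macrophages exceeded microglia in Cd40 (1.07), Cd80 (1.04) and March1 (0.48), with Icosl (-2.02) and Cd83 (-0.98) lower. Dendritic cells exceeded B cells in Cd80 (4.48), Cd40 (2.01), Cd86 (1.06) and Cd83 (0.87). Microglia exceeded T cells in March1 (4.63), Cd83 (4.03), Icosl (3.49), Cd86 (3.09) and Cd40 (3.08), and endothelial cells did in Cd40 (1.93) and March1 (1.80). Tumor cells were below T cells in Cd80 (-5.19), Cd86 (-3.49), Cd83 (-2.36) and Cd40 (-2.01). Tumor cells were thus below T cells in Cd80 and Cd86, while 7 of 8 members were above.

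Some of these calls were lost when 1 library was left out, here with the log2 fold change then. Between dendritic cells and macrophages these were Rfxap without shNC 1 (0.28) or shSELP 2 (0.38), Creb1 without shNC 2 (0.49) or shSELP 2 (0.27) and Socs1 without shSELP 1 (0.27) or shSELP 2 (0.40). Between macrophages and microglia they were Irf8 (-0.27) and Irf1 (0.25) without shNC 2, the same genes without shSELP 2 (-0.32 and 0.39), Socs1 (0.55) and Ifngr2 (-0.31) without shNC 2, and both without shSELP 1 (0.61 and -0.33). For dendritic against B cells they were Jak1 without shNC 1 (-0.60), shNC 2 (-0.97) or shSELP 2 (-0.92), Ifngr1 without shNC 2 (1.14), shSELP 1 (0.87) or shSELP 2 (0.95), Cd83 without shSELP 1 (0.62) or shSELP 2 (0.84) and Cd86 without shSELP 2 (0.92). Against T cells, microglia lost Rfx5 without shNC 2 (0.79), shSELP 1 (0.79) or shSELP 2 (0.41) and Nfyc without shSELP 2 (-0.43). Endothelial cells lost Nfyc without shNC 1 (-0.56), shSELP 1 (-0.51) or shSELP 2 (-0.84), Lgmn without shNC 1 (1.21), Socs1 without shSELP 1 (-0.71) or shSELP 2 (-0.57), and Rfxap (-0.71) and Nfya (0.96) without shSELP 1. Tumor cells lost Ifngr2 without shNC 1 (0.65) and Ctsb without shNC 2 (-0.49).

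Other alternatives also ended calls of list genes. Thinning ended 5 of 25 between dendritic cells and macrophages. Of these, the fold changes of Nfyb (0.86), Creb1 (0.69) and Socs1 (0.68) grew, and those of Jak1 (-0.22) and Rfxap (0.27) shrank. It also ended 4 of 19 between macrophages and microglia (March1 0.36, Irf8 -0.28, Ifngr2 -0.31 and Nfya -0.44). Between dendritic and B cells it ended 3 of 10 (Jak1 -0.79, Ifngr1 0.73 and Cd83 0.38). Against T cells it ended 2 of 23 in microglia, 3 of 15 in endothelial cells (Nfyc -0.99, Nfyb -0.81 and Nfya 0.55) and 2 of 20 in tumor cells (Ctsb -0.35 and Socs1 0.32). DESeq2 ended 3, 1, 1, 1, 2 and 1 calls in these 6 comparisons. The stricter marker rule ended Creb1, Rfxap and Socs1 in the first, Ifngr1 in the third and March1 (1.36) in endothelial cells. With no filter on low counts 2, 1 and 1 were lost in the first 3. In choices made after seeing the data, Irf1 (0.29) was lost between macrophages and microglia without the S100a9 cluster, and in cells with no UMI of a macrophage marker 8 of 15 endothelial calls, 5 of 20 tumor calls and 2 of 23 microglial calls did not pass. These cells are few, with 2, 10, 76 and 11 endothelial cells, and some fold changes stayed as large or grew. In endothelial cells Nfyc was then -1.17, and in tumor cells Ifngr2 was 1.86 and Ctsb -0.66. Others shrank, with Irf1 at 0.88 and Irf8 at -1.08 in endothelial cells, Socs1 at 0.11 in tumor cells and Jak1 at -0.09 in microglia.

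The genes whose pattern was most like the mean of H2-Aa, H2-Ab1, H2-Eb1 and Cd74 over 47 sums of 13 classes were Skap2 (Pearson r 0.918), Spi1 (0.89), Syk (0.887), Plbd1 (0.85) and Cfp (0.846), among 2993 genes whose mean reached 50 CPM. The members' own r was 0.935 for H2-DMa, 0.93 for H2-DMb1, 0.806 for Ciita and 0.739 for H2-DMb2. These values describe sums that share libraries and depth.

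The effect of the Selp hairpin on the members was compared in each class between the 2 shSELP and 2 shNC libraries of the mix. In edgeR's quasi-likelihood test with Benjamini-Hochberg adjustment, 0 of the 8 members were called in dendritic cells (0% of 6597 genes called), macrophages (0.149%), microglia (2.91%) and tumor cells (1.29%). The count was 0 of 7 tested in B cells (0.173%), where Ciita did not pass the filter on low counts, and 0 of 6 in endothelial cells (3.03%), where H2-DMb2 and Ciita did not. DESeq2 also called 0 in each class. At an unadjusted p under 0.05, edgeR gave 1 member in dendritic cells, 1 in macrophages, 0 in microglia, 3 in B cells, 5 in endothelial cells and 2 in tumor cells, and DESeq2 gave 0, 3, 0, 2, 5 and 4. A p above the threshold does not show that levels were alike. No source says whether replicate libraries were made from different brains, so p-values measure only the spread between these libraries. Where a library is left out below, the lone library of its arm is assumed to vary like the others.

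**Figure D3:**
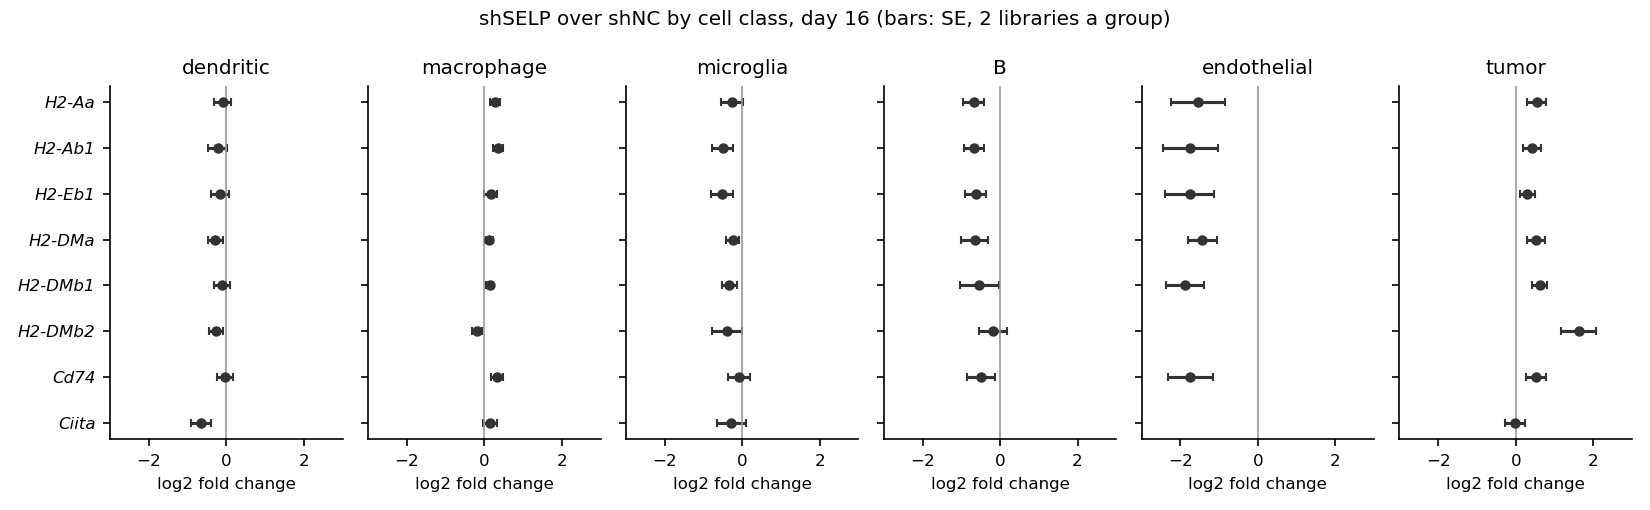
Log2 fold change (SE as bars) of each MHC class II gene in shSELP over shNC, by cell class of the mix, with 2 libraries a group. None passed edgeR's test after adjustment. Members that did not pass the filter on low counts, Ciita in B cells and H2-DMb2 and Ciita in endothelial cells, have no point.

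In dendritic cells the members' median log2 fold change was -0.20, beside -0.00 over all genes. Ciita had the largest difference, at -0.66 (SE 0.26, unadjusted p = 0.0289 and adjusted p = 0.95 in edgeR's quasi-likelihood test with Benjamini-Hochberg). H2-DMa stood at -0.29 (SE 0.19), H2-DMb2 at -0.27 (SE 0.18), H2-Ab1 at -0.23, H2-Eb1 at -0.16, H2-DMb1 at -0.11, H2-Aa at -0.10 and Cd74 at -0.03. Both shSELP libraries were below both shNC libraries in 3 of 8 members, Ciita, H2-DMa and H2-DMb2, and in 1062 of 6597 genes. Groups did not overlap, in either direction, for 33% of all genes. The cluster led by Fscn1 and Ccr7 held 35.8%, 55.6%, 43.5% and 55.3% of dendritic cells, and that led by Plet1, Ccl17 and Xcr1 held 64.2%, 42.7%, 55.3% and 42.6%. The former was the larger in replicate 2 of each group, the latter in replicate 1. Of 8 members 5 changed direction: without shSELP 2, H2-Aa (0.09), H2-Ab1 (0.01), H2-Eb1 (0.07), H2-DMb1 (0.09) and Cd74 (0.03), and without shNC 1, H2-Aa (0.05), H2-Eb1 (0.03), Cd74 (0.10) and H2-DMb1 (0.00). With clusters Cd74 was at 0.06.

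In macrophages the median was 0.16, beside -0.01 over all genes. H2-Ab1 stood at 0.35 (SE 0.13, unadjusted p = 0.0302 and adjusted p = 0.37 in edgeR's quasi-likelihood test with Benjamini-Hochberg), Cd74 at 0.33 (SE 0.16) and H2-Aa at 0.27 (SE 0.13). H2-Eb1 was at 0.16, Ciita at 0.15, H2-DMb1 at 0.14, H2-DMa at 0.13 and H2-DMb2 at -0.18. The groups did not overlap in 3 of 8 members, with H2-Ab1 and H2-DMb1 higher and H2-DMb2 lower, beside 44.2% of all genes. In macrophages the cluster led by Ms4a7 held 42.8%, 30.5%, 36.8% and 24.4%, and that led by Ly6i, Clec4e and Ly6c2 held 29.3%, 37.8%, 30.7% and 39.7%. A macrophage cluster of 549 cells held 14.8%, 14.6%, 20% and 27.3%, and a cluster led by Pclaf and Top2a held 4.78%, 2.87%, 1.21% and 0.755%. A cluster of 233 cells led by S100a9 and S100a8, genes of granulocytes, supplied 176 of the macrophages, or 5.53%, 9.17%, 5.25% and 4.91%. The groups did not overlap in the shares of these last 3 clusters, and their part in the result was not tested. Without the S100a9 cluster alone, a choice made after seeing the data, edgeR called 0 of 8 members. With no filter on low counts it called H2-Ab1 (0.35). Of 8 members 3 changed direction, H2-Eb1 without shNC 2 (-0.05), Ciita without shSELP 2 (-0.20) and H2-DMb2 when thinned (0.46).

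In microglia all 8 members had a log2 fold change below 0, with a median of -0.30 beside 0.01 over all genes. H2-Eb1 stood at -0.52 (SE 0.28), H2-Ab1 at -0.50 (SE 0.27), H2-DMb2 at -0.40 (SE 0.39), H2-DMb1 at -0.33, Ciita at -0.28, H2-Aa at -0.26, H2-DMa at -0.24 and Cd74 at -0.09. The groups overlapped for 8 of 8 members, where 50.2% of all genes did not overlap, and shSELP 1 was the lowest library in all 8. Macrophage markers summed to 1201, 1140, 742 and 570 CPM in microglia, lowest in shSELP 2, with 9, 10, 10 and 10 of 10 markers detected and Ms4a7 or Gpnmb the most abundant, and F13a1 at 0 in shNC 1. Microglial markers summed to 1494, 1987, 3199 and 2304 CPM, led by Olfml3. The cluster led by Siglech and P2ry12 held 30.1%, 26%, 65.5% and 40.6% of microglia, that led by Cst7 and Cxcl13 held 38.5%, 64%, 31.4% and 55.8%, and the macrophage cluster led by Ms4a7 held 25.2%, 7.33%, 1.83% and 1.82%. The part of these differences in the result was not tested. With classes taken from clusters, H2-Aa (0.27), H2-Ab1 (0.22), H2-Eb1 (0.15), H2-DMb1 (0.23), Cd74 (0.38) and Ciita (0.2) turned. The stricter marker rule turned H2-Aa (0.11), H2-DMb1 (0.12), Cd74 (0.27) and Ciita (0.07). H2-DMa and H2-DMb2 turned under neither. With the main marker rule, the direction turned without shNC 1 in H2-Aa (0.19), H2-Ab1 (0.04), Cd74 (0.30) and Ciita (0.04). Without shSELP 1 it turned in H2-Aa (0.10), H2-DMb2 (0.26), Cd74 (0.32) and Ciita (0.30). Without shNC 2, edgeR called H2-Eb1 (-0.90) and H2-Ab1 (-0.89). It also called both with no filter on low counts (-0.53 and -0.50) and with same-numbered libraries as a block (-0.51 and -0.46).

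The response of macrophages and microglia was compared directly by an interaction term. In edgeR's quasi-likelihood test 0 of 8 members were called, beside 0.574% of all genes, and 6 had an unadjusted p under 0.05; DESeq2 was not run. The members' median interaction was 0.49 on the log2 scale, beside 0.01 over all genes. Without shNC 2, shSELP 1 or shSELP 2, edgeR called 3, 1 and 4 members. With classes taken from clusters the median was -0.02.

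In B cells the median was -0.63, beside -0.04 over all genes. H2-Aa stood at -0.68 (SE 0.27), H2-Ab1 at -0.67 (SE 0.25), H2-DMa at -0.65 (SE 0.35), H2-Eb1 at -0.63 (SE 0.27), H2-DMb1 at -0.53, Cd74 at -0.48 and H2-DMb2 at -0.18. The smallest p was that of H2-Ab1, 0.026 before and 0.17 after Benjamini-Hochberg adjustment in edgeR's quasi-likelihood test. The groups did not overlap in 4 of 7 members, H2-Aa, H2-Ab1, H2-Eb1 and H2-DMa, all lower, beside 54.1% of all genes. The level of H2-Aa in shSELP 2, 5244 CPM, was close to the 5556 CPM of shNC 2, and shSELP 1 alone was far lower. The shSELP values rest on 13 and 14 cells. Macrophage markers summed to 302, 635, 103 and 85.6 CPM in B cells, with 7, 6, 5 and 5 of 10 detected, and Mrc1, F13a1 and Ccr2 were at 0 in all 4 libraries. The most abundant were Thbs1, Gpnmb, Ly6c2 and Fn1 in that order of libraries. Of the B cells of shNC 2, 5.13% lay in a macrophage cluster and 2.56% in a dendritic cluster, and none did in the other 3 libraries. The part of these values in the result was not tested. Without shNC 2, edgeR called H2-Aa (-0.72), and with no filter on low counts H2-Aa (-0.62) and H2-Ab1 (-0.62). Of 7 members 4 changed direction under an alternative: H2-DMa (0.07) and H2-DMb2 (0.22) with clusters, and H2-DMb1 (0.20), H2-DMb2 (0.29) and Cd74 (0.08) without shSELP 1, with H2-DMb1 also at 0.11 under the stricter rule.

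In endothelial cells all 6 members tested were lower in shSELP, with a median of -1.75 beside 0.01 over all genes. H2-DMb1 stood at -1.87 (SE 0.49, unadjusted p = 0.00654 and adjusted p = 0.0918 in edgeR's quasi-likelihood test with Benjamini-Hochberg) and H2-DMa at -1.43 (SE 0.38). H2-Eb1 was at -1.76 (SE 0.63), Cd74 at -1.75 (SE 0.58), H2-Ab1 at -1.74 (SE 0.70) and H2-Aa at -1.55 (SE 0.69). The groups did not overlap for 3 of 6, Cd74, H2-DMa and H2-DMb1, beside 53.8% of all genes. For the 3 classical chains shNC 1 lay below shSELP 2, and shNC 2 was by far the highest. The libraries held 29, 47, 361 and 86 endothelial cells, with medians of 5849, 7278, 3377 and 4794.5 UMIs. Macrophage markers summed to 1153, 1508, 873 and 1084 CPM, with 8, 8, 9 and 7 of 10 detected and Fn1 or Ly6c2 the most abundant, and Mrc1 and Chil3 were at 0 in both shNC libraries. Microglial markers summed to 132, 180, 47 and 36.1 CPM. The endothelial cluster held 75.9%, 70.2%, 97.5% and 87.2% of these cells, and the rest lay in other clusters, among them a dendritic cluster (3 cells each in shNC 2 and shSELP 1, 2 in shSELP 2) and the B cell cluster (1, 2, 1 and 1 cells). The macrophage cluster led by Ly6i held 6.9%, 10.6% and 4.65% in shNC 1, shNC 2 and shSELP 2, and none in shSELP 1. That led by Ms4a7 held 2 cells in shNC 1, 1 in shNC 2 and none in either shSELP library. The part of markers and clusters in the result was not tested. Without shSELP 1 edgeR called 4 members, H2-Aa (-0.96), H2-Ab1 (-1.16), H2-Eb1 (-1.24) and Cd74 (-1.14), and without shSELP 2 all 6, among them H2-Aa (-2.49), H2-DMb1 (-2.58) and Cd74 (-2.77). Under the stricter marker rule it called H2-DMa (-1.59) and Cd74 (-1.85). With no filter on low counts 7 of 8 were called, and with same-numbered libraries as a block 6 of 6, from -1.39 for H2-Aa to -1.80 for Cd74. DESeq2, clusters, thinning, leaving out doublets and leaving out either shNC library gave 0.

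In tumor cells the groups did not overlap, in either direction, for 50.1% of all genes, with 2667 of 10196 higher in shSELP. Of 8 members 7 were higher in both shSELP libraries than in both shNC libraries. The exception was Ciita, whose groups overlapped. The median was 0.52, beside -0.01 over all genes. H2-DMb2 stood at 1.62 (SE 0.45, unadjusted p = 0.00527 and adjusted p = 0.121 in edgeR's quasi-likelihood test with Benjamini-Hochberg), from a level that overlapped with T cells. H2-DMb1 was at 0.62 (SE 0.19), H2-Aa at 0.54 (SE 0.25), H2-DMa at 0.52 (SE 0.24), Cd74 at 0.52 (SE 0.25), H2-Ab1 at 0.42, H2-Eb1 at 0.30 and Ciita at -0.01. Tumor cells numbered 303, 215, 74 and 98, and their median depth in shSELP 2 was 4446.5 UMIs. The cluster led by H19 and Prph held 91.7%, 85.1%, 56.8% and 44.9% of them, and a cluster led by Cdk1 and Tubb3, with a median of 1583 UMIs, held 7.26%, 11.6%, 25.7% and 40.8%. An oligodendrocyte cluster held 0.33%, 1.4%, 10.8% and 9.18%. A cluster led by Ttr and Enpp2 held 0.465%, 5.41% and 2.04% in shNC 2, shSELP 1 and shSELP 2, and none in shNC 1. Macrophage markers summed to 1557, 1278, 905 and 1565 CPM, with 8, 10, 6 and 7 of 10 detected and Gpnmb or Fn1 the most abundant. Of these, Chil3 was at 0 in shNC 1, shSELP 1 and shSELP 2, and Mrc1 in both shSELP libraries. The part of depth, clusters and markers in the result was not tested. Without shNC 2, edgeR called 5 of 8 members, H2-Aa (0.96), H2-DMa (0.93), Cd74 (0.87), H2-DMb1 (0.79) and H2-Ab1 (0.76). It called H2-DMb2 with no filter on low counts (1.54) and, with same-numbered libraries as a block, H2-DMb2 (1.65) and H2-DMb1 (0.63). In the cells with no UMI of a macrophage marker, a choice made after seeing the data, H2-Ab1 (-0.39), H2-Eb1 (-0.65), H2-DMa (-0.48) and Cd74 (-0.04) turned. Ciita, near 0, turned without shNC 2 (0.01) or shSELP 2 (0.12) and with the stricter rule (0.09).

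Among the lists of related genes, the mix gave few calls between groups in edgeR's quasi-likelihood test. Ifngr1 rose in microglia, by 0.81 (SE 0.14, Benjamini-Hochberg adjusted p = 0.0168 in edgeR's quasi-likelihood test), 1 of 8 interferon-gamma genes. Ctsd rose in tumor cells, by 1.21 (SE 0.23), 1 of 5 proteases. In endothelial cells 4 of 5 proteases were lower, Lgmn (-2.56), Ctss (-2.36), Ctsb (-2.06) and Ctsd (-1.59), as was Irf8 (-2.08), 1 of 8. These 5 calls were lost without shNC 1 (-2.59, -2.69, -2.04, -1.77 and -1.90 in that order) or shNC 2 (-2.53, -1.92, -2.06, -1.39 and -2.25). With classes taken from clusters they were also lost (-1.99, -1.99, -1.78, -1.54 and -0.96). Those of Ctsd (-1.08), Irf8 (-2.13) and Ctsb (-1.4) were lost when thinned. The call of Ifngr1 was lost without shNC 2 (0.75) or shSELP 1 (0.75), with clusters (0.65) and when thinned (1.05). That of Ctsd in tumor cells was lost without shSELP 1 (0.80) and with the stricter rule (0.76). In cells with no UMI of a macrophage marker, a choice made after seeing the data that left fewer cells, neither call passed, at 0.56 for Ifngr1 in microglia and 2.67 for Ctsd in tumor cells. EdgeR called 0 genes of the 5 lists in dendritic cells, macrophages, B cells and the interaction, with 3, 4, 7 and 6 at an unadjusted p under 0.05. By DESeq2 the calls in those 3 classes were 0, 0 and 1. In macrophages only 2 class II genes outside the members were tested, H2-Oa (0.75) and H2-Ob (-0.02). Among the genes with the largest macrophage differences in the other lists were Nfyb (-0.25) and Nfyc (-0.11), Socs1 (0.28), Ctsd (0.36) and Lgmn (-0.31), and March1 (0.44) and Icosl (-0.37).

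CD11b+ cells of day 21 were compared by class between 1 shNC and 1 shSELP library, so no test was possible and intervals cover counting error only. Macrophages numbered 1551 and 1840, microglia 412 and 310, and dendritic cells 75 and 65 in shNC and shSELP. Ciita in macrophages gave 197 UMIs or 28.2 CPM in the library labelled shNC and 379 UMIs or 52.5 CPM in that labelled shSELP, a ratio of 1.86 (exact 95% interval 1.57 to 2.23). It was the only 1 of 8 members at 1.5-fold or more in macrophages, where 12.5% of all genes with at least 100 UMIs were. H2-Aa was 4344 and 4682 CPM (ratio 1.08), H2-Ab1 5474 and 5758 CPM (1.05), H2-Eb1 4713 and 4202 CPM (0.892), and Cd74 7426 and 7010 CPM (0.944). With TMM scaling Ciita had a ratio of 1.74 and H2-Ab1 0.984. Macrophage markers summed to 3420 and 3713 CPM in these cells, and microglial markers to 299 and 242 CPM. H2-DMa had a ratio of 0.99, H2-DMb1 0.848 and H2-DMb2 0.778, where all genes had a median ratio of 1.08.

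In CD11b+ microglia Ciita was 26.8 CPM from 68 UMIs in shNC and 45.5 CPM from 79 UMIs in shSELP, a ratio of 1.7 (1.21 to 2.38). The ratio was 1.59 with TMM scaling, and 1.43 (0.778 to 2.63) when thinned, where 0 of 8 members reached 1.5-fold, and with the stricter rule 2 did. Only 52.9% of these microglia lay in a microglia cluster, against 97.9% of CD11b+ macrophages and 95.7% of CD11b+ dendritic cells in clusters of their class. Ciita was again 1 of 8 members at 1.5-fold or more, beside 9.53% of 4282 genes with at least 100 UMIs. The other members ranged from 0.79 to 1.39, among them H2-DMb2 with 22 and 21 UMIs, below that limit. Dendritic cells held 15 and 17 Ciita UMIs, a ratio of 1.32 (0.622 to 2.85). Of 8 members 0 reached 1.5-fold, beside 16% of 480 genes with at least 100 UMIs. When thinned 2 members did, and with the stricter rule 2. Ciita and H2-DMb2, the latter with 32 and 36 UMIs, were below that limit of UMIs. Of the genes of the 5 lists with at least 100 UMIs, 3 of 26 reached 1.5-fold in macrophages, beside 12.5% of all genes with as many. Of these 3, 1 was higher and 2 lower, the lower being Socs1 at 0.604 (0.452 to 0.803) and Icosl at 0.664 (0.471 to 0.93). In microglia 2 of 19 reached 1.5-fold and in dendritic cells 2 of 8. In macrophages of the mix on day 16 Ciita showed no such order, at 22.6 and 23.7 CPM in shNC and 19.5 and 28.4 CPM in shSELP. Day, sort and library differ between the experiments and cannot be told apart.

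**Figure D4:**
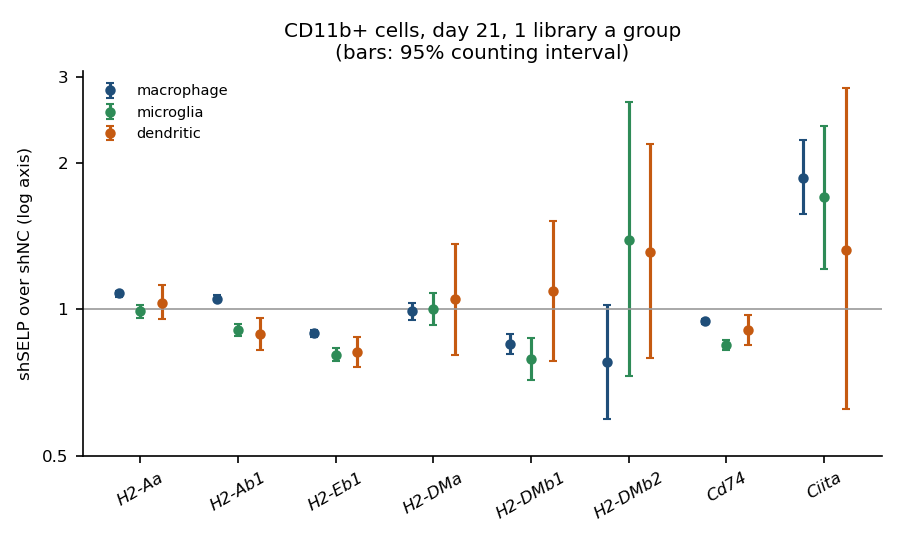
Ratio of CPM in shSELP over shNC (log axis) for each MHC class II gene in CD11b+ macrophages, microglia and dendritic cells of day 21, with 1 library a group and exact 95% intervals that cover counting error only. Ciita stands at 1.86 in macrophages and 1.7 in microglia, and the other genes lie between 0.778 and 1.39.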

How the data were processed

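The deposited counts are raw UMIs per gene and cell from droplet libraries, made by the authors with Cell Ranger 1.3 on the mm10 build per the submitters' processing notes, with 8 sequencing entries merged per library. The kit is version 2 per the labels and version 3 in the methods. Members and lists were chosen with earlier results of these data known. The text names all 8 members, genes of 5 lists that were called, the 2 of each list with the largest absolute log2 fold change in macrophages, and the 5 genes most like the members. Ifi30 and H2-Ea-ps, also on the lists, were not analysed here, and March1 and Marchf1 are 1 gene under 2 names. A gene of the lists and a division of macrophages that are withheld for evaluation are not reported here.

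Sums of at least 10 cells were filtered by filterByExpr, scaled by TMM and tested with edgeR 4.0.16 (glmQLFit and glmQLFTest, R 4.3.3) with Benjamini-Hochberg adjustment over all genes at 0.05. With 1 library a group, ratios of CPM with exact 95% intervals are given and no test was made. The tests were also run on simulated counts, whose outcome is not given here. Cells were clustered with scanpy 1.11.5 and leidenalg 0.10.2 on 2000 variable genes without the members (12 components, 20 neighbours, resolution 0.8). Doublets were called by Scrublet at a rate of 0.05: 61 cells (0.699%) in the mix and 2 (0.0361%) in CD11b+ cells, where the caller has not worked, and they were left out only in an alternative. Alternatives were DESeq2 1.42.0, no filter on low counts, a replicate block, a stricter marker rule (3 markers, 2 more than any other class), classes from clusters, cells thinned to 2000 UMIs, no doublets and each library left out. Added after seeing the data were macrophages outside the S100a8 and S100a9 cluster, cells without a UMI of a macrophage marker, and all alternatives of the interaction and of the ratios. A fit with crossed replicate numbers was run once and removed, with 0 members called in each of 6 classes. Promoter letters were also chosen after reading the sequences.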

Additional observations from a re-analysis of the deposited data

Results flagged for a closer look

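For the members below, both shSELP libraries lay above both shNC libraries in tumor cells and below them in another class. Over all genes, groups did not overlap, in either direction, for 50.1% in tumor, 54.1% in B and 53.8% in endothelial cells. Both shSELP libraries were higher for 2667 of 10196 genes in tumor cells. They were lower for 348 of 1735 in B cells and 1311 of 6304 in endothelial cells. The share of all genes with both patterns is not given. The differences between tumor cells and the other class in the log2 ratio of shSELP over shNC means were 1.09 for H2-Aa, 0.96 for H2-Ab1 and 0.8 for H2-Eb1 with B cells as the other class. With endothelial cells as the other class they were 1.78 for H2-DMa, 2.27 for H2-DMb1, 2.64 for H2-DMb2 and 2.18 for Cd74. Some were lower in further classes too: H2-DMa in B, dendritic and T cells, and H2-DMb2 in dendritic cells and macrophages. H2-DMb1 and H2-Eb1 were also lower in T cells. The difference was not tested for any of these 7. That of H2-DMb2 rests on 2, 9, 15 and 5 UMIs in endothelial cells, where the gene did not pass the filter on low counts and the nearest libraries stood at 9.77 and 9.03 CPM.

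Cells of the mix that no class claimed numbered 879, and the 8 genes made up 4.38%, 3.68%, 2.55% and 3.69% of their UMIs. The lowest library, shSELP 1 at 2.55%, was above the highest T cell share, 0.33% in shNC 2.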

How the results depend on the processing

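Numbers of members called under each alternative are given first, where they differ by more than 1.5 times from those of the report. Thinning gave 6 between dendritic cells and macrophages and 2 in the interaction of macrophages and microglia, and the stricter marker rule gave 0 between endothelial and T cells by edgeR. With no filter on low counts shSELP against shNC gave 2 in B cells, 7 in endothelial cells, 1 in macrophages, 2 in microglia and 1 in tumor cells, and the interaction gave 5. The stricter rule gave 2 in endothelial cells. Leaving out 1 library in turn, with the lone library of its arm assumed to vary like the others, gave 0 to 4 in the interaction, 0 to 1 in B cells, 0 to 6 in endothelial cells, 0 to 2 in microglia and 0 to 5 in tumor cells. Members at 1.5-fold in CD11b+ microglia numbered 0 when thinned and 2 with the stricter rule, and in CD11b+ dendritic cells 2 and 2. The replicate block gave 6 in endothelial cells, 2 in microglia and 2 in tumor cells and changed no other member count. Same-numbered libraries correlated at 0.00 in dendritic cells, -0.07 in macrophages, 0.11 in microglia, -0.04 in B cells, 0.10 in endothelial cells and 0.01 in tumor cells. Whether they share more than a number is not known.

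Of 45 member log2 fold changes of shSELP over shNC, 25 changed sign under an alternative, and of 48 between classes 10 did. The cause was not tested. With classes from clusters Cd74 was 0.06 in dendritic cells. In B cells H2-DMa was 0.07 and H2-DMb2 0.22. In microglia H2-Aa was 0.27, H2-Ab1 0.22, H2-Eb1 0.15, H2-DMb1 0.23, Cd74 0.38 and Ciita 0.20. With the stricter rule H2-DMb1 was 0.11 in B cells, Ciita 0.09 in tumor cells, and in microglia H2-Aa 0.11, H2-DMb1 0.12, Cd74 0.27 and Ciita 0.07. Thinned, H2-DMb2 was 0.46 in macrophages. In cells with no UMI of a macrophage marker, which are few and shallow and a choice made after seeing the data, microglia had H2-Aa 0.42, H2-Ab1 0.42, H2-Eb1 0.25, H2-DMa 0.01, H2-DMb1 0.39 and Cd74 0.43, and tumor cells H2-Ab1 -0.39, H2-Eb1 -0.65, H2-DMa -0.48 and Cd74 -0.04. In endothelial cells no such fit is given for shSELP against shNC, since shNC 1 had fewer than the minimum of 10 cells.

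Leaving out 1 library in turn gave ranges that crossed 0. In dendritic cells these were H2-Aa -0.33 to 0.09, H2-Ab1 -0.52 to 0.01, H2-Eb1 -0.43 to 0.07, H2-DMb1 -0.31 to 0.09 and Cd74 -0.15 to 0.10. In macrophages they were H2-Eb1 -0.05 to 0.41 and Ciita -0.20 to 0.38, with Socs1 -0.08 to 0.76 and H2-Ob -0.53 to 0.24. In microglia they were H2-Aa -0.73 to 0.19, H2-Ab1 -0.89 to 0.04, H2-DMb2 -1.15 to 0.26, Cd74 -0.66 to 0.32 and Ciita -0.88 to 0.30. In B cells they were H2-DMb1 -1.57 to 0.20, H2-DMb2 -0.75 to 0.29 and Cd74 -1.27 to 0.08, and in tumor cells Ciita -0.18 to 0.12. H2-Ob in macrophages was also 0.09 with the stricter rule, 0.22 with clusters and 0.03 without the S100a8 cluster.

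Between classes, H2-Aa in dendritic cells against macrophages was -0.04 with no filter, -0.06 thinned, -0.04 with the stricter rule, -0.01 without the S100a8 cluster and -0.03 to 0.22 without 1 library, where H2-Ab1 was -0.18 to 0.14 and H2-DMa -0.20 to 0.03. Dendritic against B cells gave H2-DMa -0.10 thinned, Ciita 0.15 with no filter and -0.29 to 0.12 without 1 library. Endothelial against T cells gave H2-Ab1 -0.15, H2-DMa -0.15 and H2-DMb2 -0.40 with the stricter rule. H2-DMb2 in macrophages against microglia was -0.14 with the stricter rule and -0.18 to 0.28 without 1 library, and in tumor against T cells -0.21 to 0.70. Of 17 values of list genes between groups, 7 lost a call under an alternative, 1 gained one and 2 changed sign, and of 112 between classes 35 lost a call. Of the members' 45 values between groups 17 gained a call and 0 lost one, and of their 48 between classes 11 lost and 6 gained one.

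Counts over all genes also moved. Between classes, thinning gave 2694 for dendritic cells against macrophages (4813 in the report), 2158 for macrophages against microglia (4035), 4167 for microglia (7027), 3816 for endothelial (6142) and 4653 for tumor cells (7871) against T cells. Cells with no macrophage marker gave 1748 and 2246 in the last 2, and leaving out a library gave 869 to 1337 for dendritic against B cells (1469). The interaction (61) gave 116 with clusters, 34 without doublets, 448 with no filter, 169 with the stricter rule and 8 to 280 without 1 library. For shSELP against shNC, no filter gave 172 in B cells (3), 46 in dendritic (0), 883 in endothelial (191), 323 in macrophages (16), 749 in microglia (255) and 933 in tumor cells (132). Clusters gave 0, 81, 51 and 216 in endothelial cells, macrophages, microglia and tumor cells, and DESeq2 19, 88 and 139 in B cells, macrophages and microglia. The stricter rule gave 9, 32, 121 and 60 in B cells, macrophages, microglia and tumor cells, and the replicate block 45, 121, 992 and 629. Thinning gave 0, 16, 22 and 78 in B cells, endothelial cells, microglia and tumor cells. Cells with no macrophage marker gave 3 in microglia and 0 in tumor cells, and macrophages gave 0 without doublets and 35 without the S100a8 cluster. Without 1 library the ranges were 1 to 117 in B cells, 6 to 348 in dendritic cells, 0 to 614 in endothelial cells, 17 to 119 in macrophages, 104 to 338 in microglia and 158 to 693 in tumor cells. Counts limit some values, with 2 Ciita UMIs in endothelial cells of shSELP 2.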
